A study of Rattus norvegicus with 16 samples.

Results

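The levels of 10 genes of DNA replication were followed through the livers of rats given xylazine, and Mcm10 was the 1 gene of the 9 tested that passed a test of dose. Of all genes tested, 0% to 2.91% passed, depending on the test. The 10 genes were chosen by name, with earlier results of these data known, from the genes that place and activate the replicative helicase. They were Mcm2, Mcm3, Mcm4, Mcm5, Mcm6 and Mcm7, the loading factors Cdc6 and Cdt1, and the activation factors Cdc45 and Mcm10. All 10 were among the 17544 genes of the deposited table, and 9 of them were among the 12732 genes with enough reads to test, Cdc6 being the exception. The study gave intraperitoneal injections over 28 days to 40 male SD rats in 4 groups, and liver RNA from 4 animals of each group was sequenced, 16 libraries in all. The groups received saline, 10 mg/kg xylazine, 20 mg/kg xylazine or 40 mg/kg xylazine. Xylazine is a veterinary sedative that acts on alpha-2 adrenergic receptors, and the study's stated subject is its effect on liver injury. The labels name no genotype, no age and no other treatment, and each library stands for the mixed cells of a piece of whole liver.

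Before a cell copies its DNA, each origin of replication is licensed: the origin recognition complex with CDC6 and CDT1 loads a ring of MCM2 to MCM7 onto the DNA. In S phase, CDC45 and the GINS complex join this ring to form the active helicase, and MCM10 binds it to start unwinding. In cultured cells most of these genes are transcribed under E2F factors late in G1, and in adult liver, where most hepatocytes rest in G0, their levels are low until cells are driven to divide.

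The library totals of expected counts, the reads that the authors' software assigned to each gene, lay between 16059922 and 16956867. The hepatocyte gene Alb reached between 86882.7 and 124721 CPM (counts scaled to a common library total), and it marks the labelled tissue. The defining T cell gene Cd3e reached at most 18 counts in a library and the B cell gene Ms4a1 at most 6. None of the 10 cell type marker lists had a gene that passed at 40 mg/kg against saline, where 1.11% of all genes tested passed. The T and NK cell, B and plasma cell and neutrophil lists had only 2 tested genes each. With so few genes and so low a share, the absence of calls says little of cell makeup. In bulk liver, fewer cells that express a gene and less RNA per cell cannot be told apart.

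Levels between genes are compared here in FPKM, a unit that the authors deposited and that divides fragments by transcript length and by the library total. Over all 16 animals Mcm7 was highest, at 4.44 ± 0.859 FPKM (SD, n = 16), and Mcm10 was next, at 2.17 ± 1.28 FPKM. Mcm4 averaged 1.78 FPKM, Mcm2 1.41 FPKM, Mcm6 1.08 FPKM, Mcm3 0.723 FPKM and Mcm5 0.551 FPKM. Cdc45 averaged 0.376 FPKM, Cdt1 0.308 FPKM and Cdc6 0.103 FPKM. The 6 subunits of the ring, which assemble in equal numbers as proteins, thus had mean transcript levels between 0.551 and 4.44 FPKM. In saline livers the order was Mcm7, Mcm10, Mcm4, Mcm2, Mcm6, Mcm3, Mcm5, Cdc45, Cdt1 and Cdc6. The ranges of neighbours in that order overlapped except between Mcm10 and Mcm4 and between Cdt1 and Cdc6. At 40 mg/kg Mcm10 stood in place 5, between Mcm6 and Mcm3, and its range overlapped those of both.

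**Figure D1:**
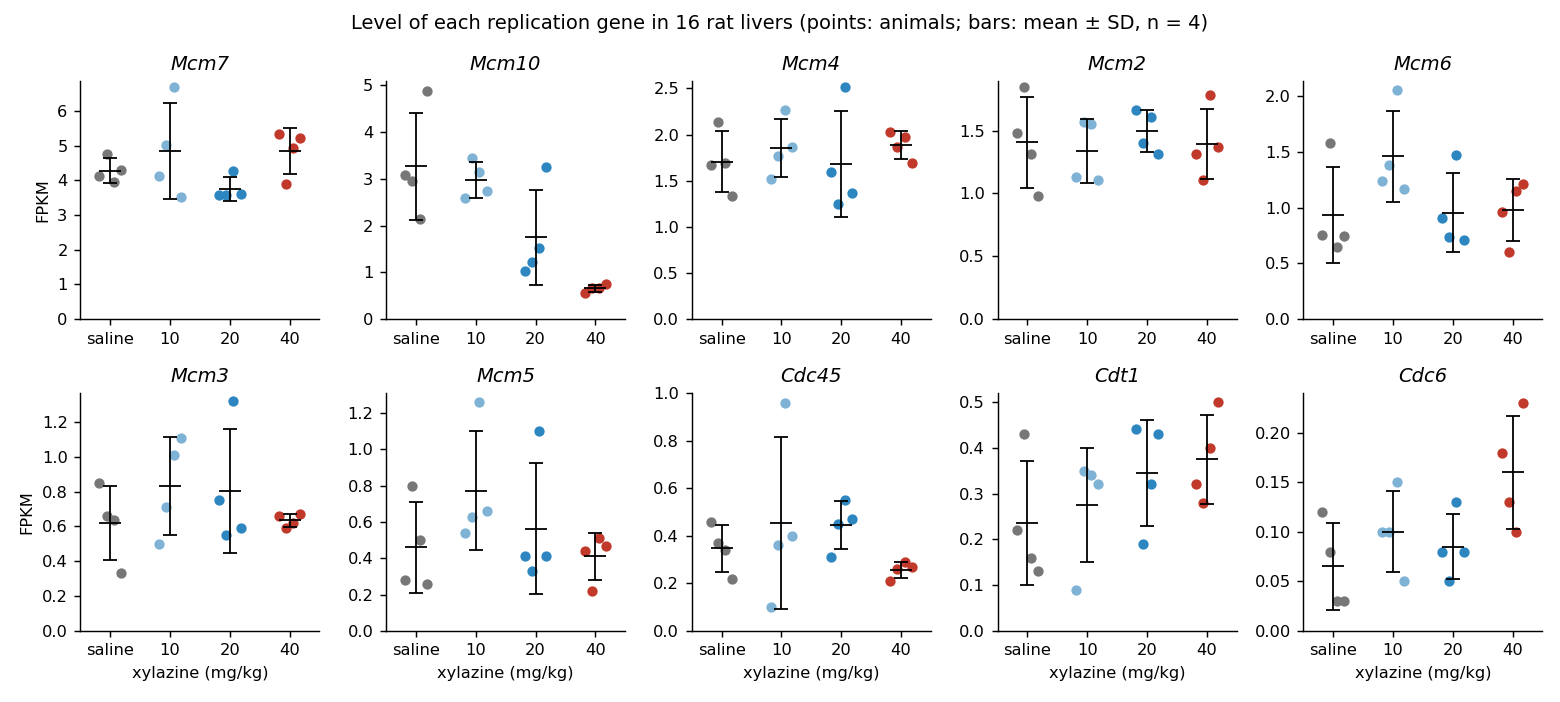
FPKM of each of the 10 genes in each of 16 livers against xylazine dose (mg/kg), from saline to 40 mg/kg, ordered by mean level; points are animals and black bars are means with SD (n = 4). Mcm10 is the gene whose 4 animals at 40 mg/kg (0.57 to 0.75 FPKM) lie below all 4 saline animals (2.15 to 4.88 FPKM).

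Mcm10 codes for a DNA-binding protein that attaches to the loaded helicase and is needed for it to start unwinding. It had 3.09, 2.96, 2.15 and 4.88 FPKM in the 4 saline livers, and 2.59, 3.44, 3.14 and 2.74 FPKM at 10 mg/kg. At 20 mg/kg the values were 1.03, 1.22, 1.52 and 3.25 FPKM, and at 40 mg/kg they were 0.57, 0.67, 0.67 and 0.75 FPKM. The 10 mg/kg animals lay within the wider range of the saline animals, 3 of the 4 animals at 20 mg/kg lay below both, and the fourth lay among them. All sequenced animals at 40 mg/kg were lower than every other sequenced animal. The group means were 3.27 ± 1.15, 2.98 ± 0.386, 1.76 ± 1.02 and 0.665 ± 0.0737 FPKM (SD, n = 4 each) from saline to 40 mg/kg. In reads, Mcm10 had between 45 and 55 counts per library at 40 mg/kg, against 148 to 330 in saline livers.

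Mcm10 fell at 40 mg/kg to 0.220 times its level in saline livers. Its log2 fold change was -2.18 with a standard error (SE) of 0.338 and a 95% interval of -2.91 to -1.46 (edgeR quasi-likelihood test, Benjamini-Hochberg adjusted p = 0.0129, lower in 4 of 4 animals). Among all genes tested its p had rank 11. It was the only 1 of the 9 genes to pass in this comparison, in which 1.11% of all genes tested passed and 0.636% of all genes tested passed as lower. The 4 treated and 4 saline animals did not overlap for 9.3% of all genes, with 4.85% lower. At 20 mg/kg the log2 fold change against saline was -0.85 (SE 0.313, adjusted p = 0.451), and at 10 mg/kg it was -0.11 (SE 0.306, adjusted p = 0.999). No gene of the 9 passed at 20 mg/kg or at 10 mg/kg against saline, where the edgeR test called 0% of all genes at either dose. At an unadjusted p under 0.05 it counted 1 of the 9 at 20 mg/kg (Mcm10) and 1 at 10 mg/kg (Mcm6), with 9.13% and 4% of all genes, and DESeq2 called 0 of the 9 at both doses, with 0.481% of all genes at 20 mg/kg and 0.00786% at 10 mg/kg.

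The 8 hepatocyte markers summed to between 160982 and 176228 CPM at 40 mg/kg and between 152363 and 193861 CPM in saline livers. None of the 8 passed. Alb alone had 94208 to 108007 CPM at 40 mg/kg, so the sums say little of the lower markers. Of the 8, 5 had negative and 3 positive log2 fold changes (median -0.04, smallest adjusted p = 0.0769 by edgeR). At an unadjusted p under 0.05 there were 3, where 16.2% of all genes were. Serpina1 (10176 to 12143 CPM at 40 mg/kg, 13722 to 14522 CPM in saline livers) and Cps1 were lower without overlap, as were 4.85% of all genes. All 7 genes of the mesothelial marker list had positive log2 fold changes at 40 mg/kg (median 1.02, 0 passing). Their sums were 117 to 199.5 CPM at 40 mg/kg and 107 to 129 CPM in saline livers. These sums mostly follow 1 gene, Krt8, which had 84.3 to 165.6 CPM over the libraries. No other gene of the list exceeded 32.5 CPM, so the sums do not measure mesothelial content. The part of cell makeup in the fall of Mcm10 was not tested.

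The value at 20 mg/kg rested on replicate 4 of that group, at 3.25 FPKM. Without that animal the log2 fold change at 20 mg/kg was -1.35 (adjusted p = 0.0346 by the edgeR test), and 19 of all genes tested passed. Without it and without saline replicate 4, the highest animal of all at 4.88 FPKM, the value was -1.07 (adjusted p = 0.0324), and 6 of all genes passed. With all libraries 0 of all genes passed. Without saline replicate 4 alone the value was -0.56 (adjusted p = 0.730), the smallest size when 1 library was left out.

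Over the whole dose range Mcm10 fell by 2.28 in log2 units along the linear trend that spans saline to 40 mg/kg (SE 0.342, adjusted p = 0.00655, rank 9 of all genes by edgeR), in a comparison where 2.91% of all genes passed and 1.63% passed as lower. Of the 8 hepatocyte markers 1 also fell in this trend: Cps1, an enzyme of the urea cycle, had -0.43 in log2 units (adjusted p = 0.0451 by edgeR), with 2052 to 3147 CPM at 40 mg/kg and 3262 to 4005 CPM in saline livers. Its call was lost under 6 of 11 other settings and when 1 of 13 libraries was left out, those other than 20 mg/kg replicates 3 and 4 and 40 mg/kg replicate 2, and its part in the trend of Mcm10 was not tested. The test of any dose against saline also called Mcm10 alone of the 9 (adjusted p = 0.0354), where 0.361% of all genes passed. That call was lost, at an adjusted p of 0.0566 to 0.104, when 1 of 10 libraries was left out: saline replicates 1 and 2, 10 mg/kg replicates 2, 3 and 4, 20 mg/kg replicate 2 or any animal at 40 mg/kg. Between doses, Mcm10 at 40 mg/kg was lower than at 10 mg/kg (log2 fold change -2.07, SE 0.338, adjusted p = 0.0190), and 0.361% of all genes passed there. Leaving out 10 mg/kg replicate 2 or any 1 animal at 40 mg/kg took that adjusted p to between 0.0631 and 0.0798, and over all 16 removals the log2 fold change stayed between -2.12 and -2.01. Against 20 mg/kg, the 40 mg/kg animals were all lower in Mcm10 (log2 fold change -1.34, SE 0.342, adjusted p = 0.846), which was so for 1.6% of all genes; 0% of all genes passed. At 20 against 10 mg/kg the value was -0.73 (adjusted p = 0.599), and 0% of all genes passed. Without 20 mg/kg replicate 4 these values were -0.83 at 40 against 20 mg/kg and -1.24 at 20 against 10 mg/kg (adjusted p = 0.939 and 0.0808).

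**Figure D2:**
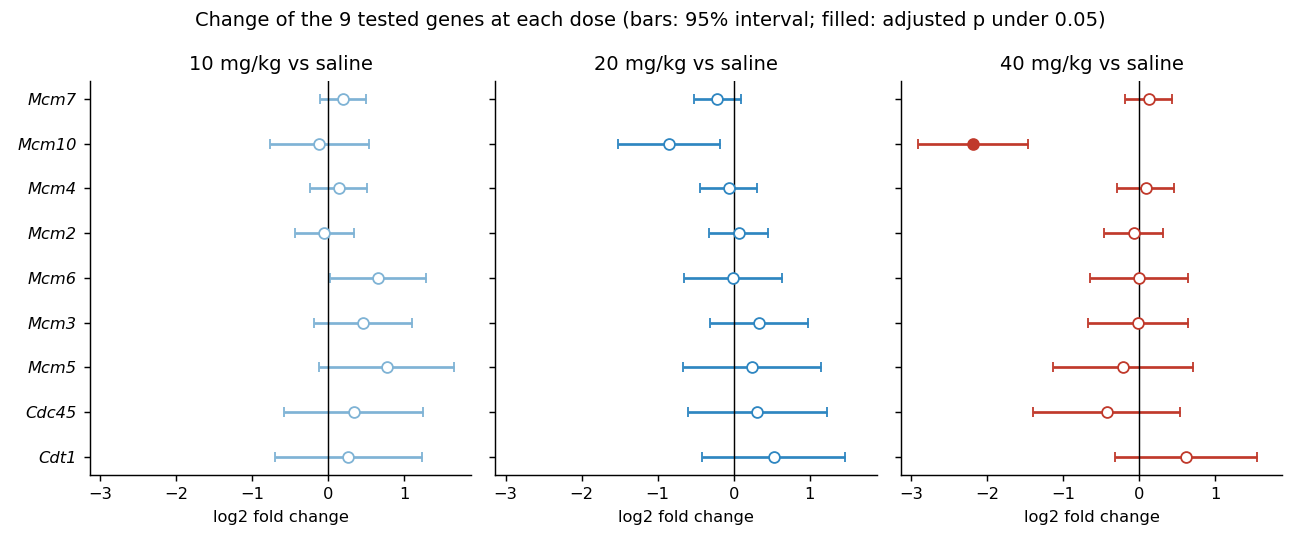
Log2 fold change of the 9 tested genes at 10, 20 and 40 mg/kg xylazine against saline; points are edgeR estimates over 4 animals per group, bars are 95% intervals, and a filled point marks an adjusted p under 0.05. The only filled point is Mcm10 at 40 mg/kg, at -2.18.

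The subunits of the helicase ring did not pass in any comparison, and of all genes tested only 0% to 2.91% passed in these comparisons. At 40 mg/kg against saline the log2 fold changes were -0.07 for Mcm2, -0.01 for Mcm3, 0.09 for Mcm4, -0.21 for Mcm5, 0.00 for Mcm6 and 0.13 for Mcm7, with adjusted p between 0.717 and 0.999 in the edgeR test. The median over all genes tested was 0.00. The intervals differ in width with the reads behind them. For Mcm7, the most abundant subunit with 119 to 229 counts per library, the 95% interval was -0.18 to 0.43, and for Mcm4 it was -0.29 to 0.46 and for Mcm2 -0.46 to 0.32. For Mcm3 it was -0.67 to 0.64, for Mcm6 -0.64 to 0.64 and for Mcm5, with 10 to 59 counts per library, -1.14 to 0.71. The interval of Mcm10 at this dose ended at -1.46 and shared no value with that of any of the 6 subunits, although the difference between the genes was not tested.

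Mcm5 and Mcm6, ATPase subunits of the ring, had their highest mean levels at 10 mg/kg, and they were not alone in this. In mean FPKM the same was so for Mcm3 and Cdc45, and in mean CPM for Mcm3, Mcm4, Mcm7 and Cdc45. Of the 6 ring genes, 5 had positive log2 fold changes at 10 mg/kg against saline and 1 a negative one, where 50.1% of all genes were negative. Mcm6 had 0.76, 1.58, 0.65 and 0.75 FPKM in saline livers, 1.24, 1.38, 2.06 and 1.17 FPKM at 10 mg/kg, 0.91, 0.74, 1.47 and 0.71 FPKM at 20 mg/kg, and 0.96, 0.60, 1.15 and 1.21 FPKM at 40 mg/kg. Saline replicate 2 lay inside the range of the 10 mg/kg animals and the other saline animals lay below it. The log2 fold change of Mcm6 at 10 mg/kg against saline was 0.66 (SE 0.298, unadjusted p = 0.0421, adjusted p = 0.999 by edgeR). Mcm5 had 0.28, 0.80, 0.50 and 0.26 FPKM in saline livers, 0.54, 0.63, 1.26 and 0.66 FPKM at 10 mg/kg, 0.41, 0.33, 1.10 and 0.41 FPKM at 20 mg/kg, and 0.44, 0.22, 0.51 and 0.47 FPKM at 40 mg/kg. Its log2 fold change at 10 mg/kg against saline was 0.77 (SE 0.419, adjusted p = 0.999). Without saline replicate 2 these values were 1.03 for Mcm6 and 1.17 for Mcm5, and without 10 mg/kg replicate 3 they were 0.47 and 0.45. All 4 animals at 40 mg/kg were below all 4 at 10 mg/kg in CPM for both Mcm5 (log2 fold change -0.98, adjusted p = 0.326 by edgeR) and Mcm6 (-0.66, adjusted p = 0.351), as they were for 4.48% of all genes.

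Mcm7 had 4.14, 4.77, 3.94 and 4.29 FPKM in saline livers and 4.13, 5.03, 6.70 and 3.51 FPKM at 10 mg/kg. It had 3.59, 3.58, 4.28 and 3.60 FPKM at 20 mg/kg and 5.34, 3.90, 4.94 and 5.23 FPKM at 40 mg/kg. In CPM the 4 animals at 20 mg/kg (7.37 to 7.97) lay below all saline animals (8.03 to 9.83), with a log2 fold change of -0.22 (adjusted p = 0.699 by edgeR); 2.26% of all genes were lower without overlap there. Mcm7 also hosts Mir25, Mir93 and Mir106b in the RefSeq annotation of the GRCr8 assembly, and Mcm3 and Mcm6 overlap a pseudogene, Cct7-ps4, and a transfer RNA gene. Over all animals Mcm2 lay between 0.98 and 1.85 FPKM, Mcm4 between 1.25 and 2.51 FPKM and Mcm3 between 0.33 and 1.32 FPKM. The SD of log2 CPM over the 16 animals was 0.23 for Mcm2, 0.24 for Mcm4 and Mcm7, 0.42 for Mcm3, 0.48 for Mcm6, 0.64 for Mcm5 and 0.96 for Mcm10.

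The loading and activation factors other than Mcm10 were near the limit of these libraries. Cdt1, which brings the ring to the origin and is held back by geminin, had 3 to 16 counts per library. In FPKM it had 0.22, 0.43, 0.16 and 0.13 in saline livers, 0.09, 0.35, 0.34 and 0.32 at 10 mg/kg, 0.44, 0.19, 0.32 and 0.43 at 20 mg/kg, and 0.32, 0.28, 0.40 and 0.50 at 40 mg/kg. Its log2 fold change at 40 mg/kg against saline was 0.62, with a 95% interval of -0.31 to 1.56 (adjusted p = 0.520 by edgeR), and without saline replicate 2 it was 1.10. Cdc45, the helicase cofactor, had 0.46, 0.37, 0.34 and 0.22 FPKM in saline livers, 0.10, 0.36, 0.96 and 0.40 FPKM at 10 mg/kg, 0.31, 0.45, 0.55 and 0.47 FPKM at 20 mg/kg, and 0.21, 0.26, 0.29 and 0.27 FPKM at 40 mg/kg. Its log2 fold change at 40 mg/kg against saline was -0.43, with an interval of -1.40 to 0.54 (adjusted p = 0.692), and without saline replicate 1 it was -0.27. Cdc6, an ATPase that works with the origin recognition complex, had 5, 3, 1 and 1 counts in saline livers, 4, 4, 6 and 2 at 10 mg/kg, 3, 2, 5 and 3 at 20 mg/kg, and 7, 5, 4 and 9 at 40 mg/kg. It was too low to test.

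Set against the ring, Mcm10 stood lower at 40 mg/kg than in saline livers, a difference in ratio that is given without a test. The FPKM of Mcm2 to Mcm7 summed to 9.41 ± 1.67 in saline livers, 11.1 ± 2.65 at 10 mg/kg, 9.26 ± 2.07 at 20 mg/kg and 10.2 ± 1.26 at 40 mg/kg (SD, n = 4 each). Mcm10 was 2.17 ± 1.04 times the mean of the 6 subunits in saline livers, 1.65 ± 0.260 times at 10 mg/kg, 1.20 ± 0.832 times at 20 mg/kg and 0.398 ± 0.0721 times at 40 mg/kg. The ratio ranged from 0.318 to 0.486 at 40 mg/kg and from 1.48 to 3.69 in saline livers. At 20 mg/kg it was 2.44 in replicate 4 and 0.694 to 0.932 in the other animals.

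**Figure D3:**
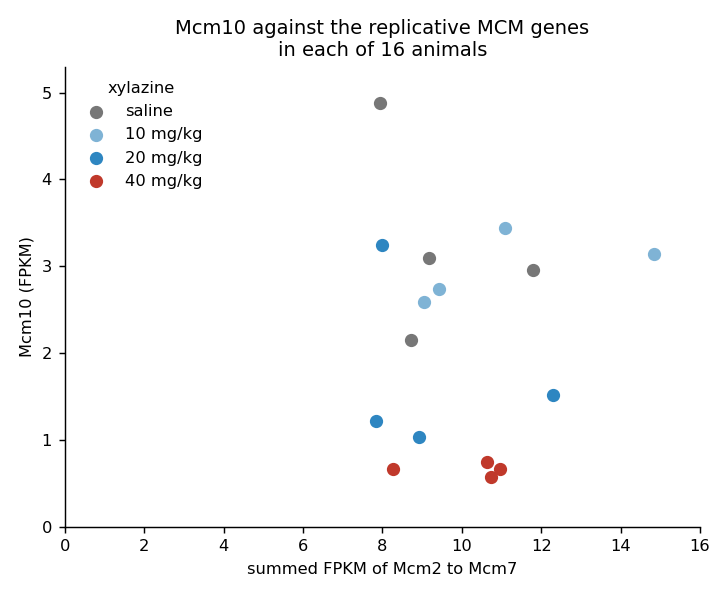
Mcm10 (FPKM) against the summed FPKM of Mcm2 to Mcm7 in each of 16 livers, coloured by dose from saline to 40 mg/kg; each point is 1 animal. The 4 animals at 40 mg/kg lie at the bottom (0.57 to 0.75 FPKM of Mcm10) at sums of 8.28 to 10.97, inside the span of the saline sums (7.94 to 11.80).

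From animal to animal, Mcm4, Mcm5 and Mcm6 varied with the rest of the ring by each measure used, Mcm2 and Mcm3 by some of them, and for Mcm10 no such relation was detected. Each of the 9 tested genes was correlated over 16 animals with the mean standardized log2 CPM of Mcm2 to Mcm7, leaving the gene itself out, which makes 9 relations. Mcm5 had Pearson's r = 0.863 (permutation p = 1e-05, the smallest that the permutations can give, adjusted p = 9e-05) and Spearman's rho = 0.818 (permutation p = 2e-04, adjusted p = 0.00104). Mcm6 had r = 0.841 (permutation p = 4e-05, adjusted p = 0.00018) and rho = 0.809 (p = 0.00023, adjusted p = 0.00104), and Mcm4 had r = 0.742 (permutation p = 0.00104, adjusted p = 0.00312) and rho = 0.747 (p = 0.00135, adjusted p = 0.00405). Without the 2 animals farthest from the median of the ring mean, r was 0.781 for Mcm5, 0.800 for Mcm6 and 0.847 for Mcm4. With each value taken as its deviation from its own dose group, r was 0.889 for Mcm5, 0.841 for Mcm6 and 0.769 for Mcm4 (permutation within groups, adjusted p = 0.00669 each), and rho was 0.821, 0.791 and 0.676 (adjusted p = 0.0106, 0.0106 and 0.0244).

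For the other ring genes the pooled r was 0.428 for Mcm2, 0.535 for Mcm3 and 0.442 for Mcm7 (permutation, adjusted p = 0.114, 0.0765 and 0.111), and Cdt1 and Cdc45 had 0.476 and 0.484 (adjusted p = 0.0925 each). Pooled rho passed for Mcm3 alone of these 5, at 0.624 (permutation, adjusted p = 0.0266), and was 0.350 to 0.476 for the others (adjusted p = 0.108 to 0.210). Within dose groups Mcm2 passed, with r = 0.612 and rho = 0.638 (permutation, adjusted p = 0.0427 and 0.032), and r was 0.751 without the 2 farthest animals. The other 4 had r between 0.495 and 0.626 and rho between 0.412 and 0.582 within groups (permutation, adjusted p = 0.0562 to 0.196). Mcm10 had r = 0.0614 (permutation p = 0.823, adjusted p = 0.823), rho = 0.00 (p = 1) and r = -0.178 without the 2 farthest animals. Within dose groups its r was -0.227 (permutation p = 0.494) and its rho -0.0971 (p = 0.727). The animal with the highest ring mean was 10 mg/kg replicate 3, at 1.60 SD, and the lowest was saline replicate 4, at -1.13 SD, which had the highest Mcm10 of all animals.

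Promoters are shown to set the start of Mcm10 beside those of ring genes whose levels followed another course over the animals. Sequences from 250 bases before to 50 bases after the annotated start were taken from RefSeq on the GRCr8 assembly, which is not the mRatBN7.2 build named in the submitters' processing notes, and 8 of the 10 genes matched (not Mcm4 and Cdc6). The promoters below, written 5′ to 3′ on the gene's own strand, are those of Mcm10 at chr17:78175137-78175436 (+ strand), Mcm5 at chr19:13488563-13488862 (+ strand), Mcm6 at chr13:42404303-42404602 (- strand) and Mcm7 at chr12:22163129-22163428 (- strand). Capitals mark matches on either strand to an E2F core, which was searched as TTCCCGC and also in the spelling TTCGCGC, in the spelling TTGCCGC and in the spelling TTGGCGC. They also mark a variant spelling, TTGGCGG, that was added after the sequences were seen.
Mcm10: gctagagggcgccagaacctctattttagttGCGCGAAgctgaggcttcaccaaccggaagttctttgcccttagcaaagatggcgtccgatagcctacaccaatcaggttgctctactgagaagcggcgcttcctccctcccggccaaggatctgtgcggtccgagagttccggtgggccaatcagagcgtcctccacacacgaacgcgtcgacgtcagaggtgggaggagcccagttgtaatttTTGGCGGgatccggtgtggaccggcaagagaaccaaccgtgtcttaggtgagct
Mcm5: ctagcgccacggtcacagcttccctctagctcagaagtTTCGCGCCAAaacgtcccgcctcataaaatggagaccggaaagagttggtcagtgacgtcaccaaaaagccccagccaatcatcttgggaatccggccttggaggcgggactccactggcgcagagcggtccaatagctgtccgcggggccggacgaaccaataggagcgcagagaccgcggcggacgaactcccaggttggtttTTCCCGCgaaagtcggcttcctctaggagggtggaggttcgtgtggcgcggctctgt
Mcm6: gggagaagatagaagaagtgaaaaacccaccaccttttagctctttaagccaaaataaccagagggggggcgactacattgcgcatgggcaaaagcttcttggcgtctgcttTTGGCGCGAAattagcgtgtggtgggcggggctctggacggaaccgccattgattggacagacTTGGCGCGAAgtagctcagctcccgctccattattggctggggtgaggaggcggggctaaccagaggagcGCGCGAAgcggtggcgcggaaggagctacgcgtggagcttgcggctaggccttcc
Mcm7: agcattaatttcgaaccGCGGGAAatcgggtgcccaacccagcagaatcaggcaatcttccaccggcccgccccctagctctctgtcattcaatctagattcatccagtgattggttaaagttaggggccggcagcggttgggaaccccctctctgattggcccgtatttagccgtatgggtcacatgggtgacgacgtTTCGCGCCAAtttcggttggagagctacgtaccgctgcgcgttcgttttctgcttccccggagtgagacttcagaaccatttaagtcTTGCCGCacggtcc

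Counting overlapping matches once, the E2F core stood at 3 places in the promoters of Mcm6, Mcm7 and Cdt1, at 2 in those of Mcm3 and Mcm5, at 1 in those of Mcm2 and Mcm10, and at 0 in that of Cdc45. Of all 33469 rat promoters of the same length in the table, 9.52% held at least 1 such place, 0.923% at least 2 and 0.0747% at least 3. In Mcm2, Mcm3, Mcm5 and Mcm6, a match began within 10 bases before the annotated start. Mcm10 had its core match at base -219 and the variant at base -4, and Cdc45 had the variant alone, at base -58 (counted to the first letter from the start, negative before it); 2.48% of all promoters held the variant. The CCAAT box (CCAAT, both strands) stood 4 times in Cdc45, 3 times in Mcm3, Mcm5 and Mcm7, 2 times in Mcm6 and Mcm10 and 0 times in Mcm2 and Cdt1, and 37.5% of all promoters held it. The cell cycle homology region (TTTGAA, both strands) was found 2 times in Mcm2 and in 0 of the other 7 promoters, and 18.3% of all promoters held it. The E-box CACGTG was found 1 time in Mcm2 and in no other of the 8, with 6.42% of all promoters. A match of these letters describes the sequence and does not show that a factor binds there.

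**Figure D4:**
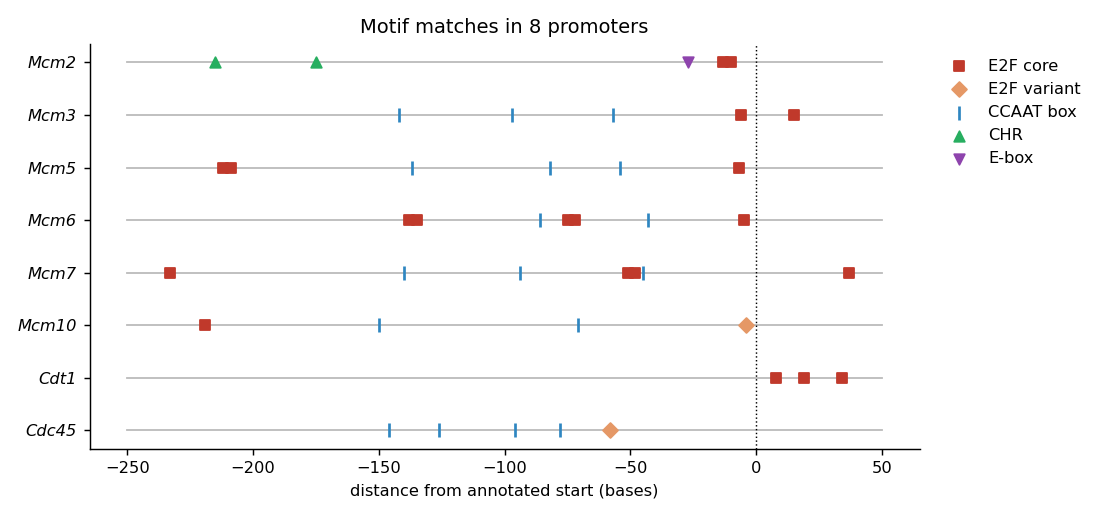
Positions of motif matches in the 8 promoters, in bases from the annotated start (0), from 250 before to 50 after; symbols mark the first base of each match to the E2F core, the E2F variant, the CCAAT box, the cell cycle homology region (CHR) and the E-box. Overlapping matches on the 2 strands appear as touching squares.

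The genes most like each pattern were named by the highest Pearson's r over the 16 animals among 11769 tested genes with a mean of at least 1 CPM. For the mean of Mcm2 to Mcm7 these were Mki67 (r = 0.865), a nuclear protein of dividing cells; Pkmyt1 (0.841), a kinase that restrains CDK1; Ckap2 (0.828), a spindle protein; Tuba1b (0.827), an alpha-tubulin; and Smc4 (0.824), a condensin subunit. None of the 5 passed at 40 mg/kg against saline, where 1.11% of all genes tested passed, with log2 fold changes between -0.86 and 0.05. These genes were chosen for their likeness to the ring mean over the same animals, so their changes are not independent of its own. For Mcm10 the genes most alike were Nlrp12 (r = 0.950), Cflar (0.932), Fmo4 (0.928), Map3k2 (0.927) and Arhgef26 (0.917). Nlrp12 codes for an NLR-family regulator of inflammation, Cflar for a caspase-8 regulator, Fmo4 for a flavin monooxygenase, Map3k2 for a kinase and Arhgef26 for a guanine nucleotide exchange factor. None of these 5 stood in the lists of other replication and cell cycle genes described below. Those lists held 114 of the 12732 genes tested, so their absence among 5 genes says little. With each value taken from its dose group mean, r with Mcm10 was 0.634 to 0.873. Nlrp12 averaged 76.5 ± 17.4 CPM at 40 mg/kg and 192 ± 34.2 CPM in saline livers, and Arhgef26 18.2 ± 1.30 CPM at 40 mg/kg and 39.1 ± 9.25 CPM in saline livers (SD, n = 4 each). All 5 fell at 40 mg/kg against saline without overlap of animals, by log2 fold changes of -1.33 for Nlrp12 (adjusted p = 0.00589 by edgeR), -1.10 for Arhgef26 (0.0442), -0.73 for Fmo4 (0.0150), -0.60 for Cflar (0.0129) and -0.37 for Map3k2 (0.0439). The call was lost for Arhgef26 with no filter on low counts and when 1 of 10 libraries was left out (10 mg/kg replicates 3 and 4, saline replicates 1, 2 and 4, 20 mg/kg replicate 2 or any animal at 40 mg/kg), and for Map3k2 under 6 of 11 other settings and when 1 of 7 libraries was (10 mg/kg replicate 3, saline replicates 1 and 4 or any animal at 40 mg/kg). The 5 genes were chosen for their likeness to Mcm10 over the same animals, so their fall is not independent of its own.

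The genes beside Mcm10 in the GRCr8 annotation did not pass with it. Optn, an autophagy receptor, averaged 171 ± 3.04 CPM at 40 mg/kg and 185 ± 11.0 CPM in saline livers (log2 fold change -0.11, adjusted p = 0.427 by edgeR). Ucma, on the other side, was too low to test, at 0.110 to 0.472 CPM over the libraries. Phyh, a peroxisomal hydroxylase close by, had a log2 fold change of -0.59 at 40 mg/kg against saline (adjusted p = 0.117). It had 345 to 695 CPM at 40 mg/kg and 737 to 825 CPM in saline livers, without overlap, as 4.85% of all genes were lower. At 20 mg/kg it had 424 to 722 CPM, where 2.26% of all genes were lower without overlap. Its linear dose trend was -0.60 (adjusted p = 0.0593 by edgeR), where 1.63% of all genes passed as lower. Sephs1, tested with it, had -0.04 at 40 mg/kg (adjusted p = 0.869 by edgeR).

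The rest of the replication machinery was described with 6 lists of 126 other genes, all in the table and 114 of them tested. At 40 mg/kg against saline 0 of the 114 passed in the edgeR test, with 19 at an unadjusted p under 0.05, where 16.2% of all genes were; DESeq2 called 2, Rbl2 and Cdkn1a, and 4.11% of all genes. At 20 mg/kg 0 passed and 4 were under 0.05 unadjusted, where 9.13% of all genes were, and at 10 mg/kg 0 passed and 14 were, where 4% of all genes were. DESeq2 called 0 of the 114 at both doses. In the linear dose trend DESeq2 called 10 of the 114 and 5.91% of all genes, and at 40 against 10 mg/kg it called 22 of the 114 and 2.39% of all genes.

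Origin recognition and licensing control had 11 genes tested, with a median log2 fold change of 0.10 at 40 mg/kg against saline. Lrwd1, which binds the origin recognition complex, had 0.25 (adjusted p = 0.241) and Orc4, a subunit of it, 0.19 (0.285). Gmnn, which codes for the CDT1 inhibitor geminin, averaged 2.21 ± 0.628 FPKM at 40 mg/kg and 1.53 ± 0.434 FPKM in saline livers (log2 fold change 0.50, adjusted p = 0.464). Orc1 was too low to test, at no more than 0.20 FPKM. Origin firing had 9 tested genes with a median of 0.02, among them the GINS genes Gins1 (0.57, adjusted p = 0.512) and Gins2 (0.02, 0.990) and Dbf4, the activator of the CDC7 kinase (-0.45, 0.444). Cdc7 itself was too low to test, at 0.13 to 0.21 FPKM at 40 mg/kg and 0.08 to 0.13 FPKM in saline livers. The replication fork had 31 tested genes with a median of 0.03. Pcna, the sliding clamp, averaged 16.8 ± 1.70 FPKM at 40 mg/kg and 14.9 ± 2.32 FPKM in saline livers (log2 fold change 0.13, adjusted p = 0.617), well above the ring genes. Rnaseh2b, a ribonuclease H2 subunit, had 0.29 (0.258) and Pold3, a polymerase delta subunit, 0.19 (0.326).

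Nucleotide supply had 11 tested genes with a median of -0.08 at 40 mg/kg against saline, and Rrm2, the small subunit of ribonucleotide reductase, had -1.08 (adjusted p = 0.275). The 28 tested G1 to S regulators had a median of 0.05. E2f1 had -0.18 (adjusted p = 0.876), Ccne2 (cyclin E2) 0.28 (0.494) and Ccnd1 (cyclin D1) 0.72 (0.347). Cdkn1a, the CDK inhibitor p21, averaged 6.12 ± 2.13 FPKM at 40 mg/kg and 15.9 ± 9.44 FPKM in saline livers (log2 fold change -1.44, adjusted p = 0.149). Rbl2, a pocket protein that represses E2F targets in resting cells, was the 1 gene of the 114 to pass in the linear dose trend, where it had a value of -0.28 in log2 units (adjusted p = 0.0465). That call was lost under 7 of 11 other settings and when 1 of 13 libraries was left out, those other than 10 mg/kg replicate 1, saline replicate 3 and 20 mg/kg replicate 1.

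The mitosis and proliferation markers shared 1 sign at 10 mg/kg and the other sign at 40 mg/kg, and none passed against saline. Of 24 such genes, all tested, 24 were positive at 10 mg/kg against saline (median log2 fold change 0.91, 11 under 0.05 unadjusted) and 24 were negative at 40 mg/kg (median -0.71, 6 under 0.05 unadjusted), and 0 passed at either dose. Of all genes tested, 4% were under 0.05 unadjusted at 10 mg/kg and 16.2% at 40 mg/kg, and 50.1% and 50% were negative. Along the linear dose trend, where Mcm10 passed, all 24 were also negative, with a median of -1.22, and 49.6% of all genes were negative. None of the 24 passed there (smallest adjusted p = 0.120 by edgeR) or in the test of any dose (0.0769). The part of these genes in the trend of Mcm10 was not tested. At 40 against 10 mg/kg, where 49.9% of all genes were negative and 0.361% passed, all 24 were negative with a median of -1.76, and 2 passed, Kif11 (log2 fold change -1.42) and Nusap1 (-2.13), as did Rrm2 (-2.43) from the nucleotide list (adjusted p = 0.0428 each by edgeR). Rrm2 averaged 1.45 ± 0.539 FPKM at 40 mg/kg and 7.56 ± 5.39 FPKM at 10 mg/kg, Kif11, a spindle motor, 0.283 ± 0.0472 and 0.723 ± 0.306 FPKM, and Nusap1, a spindle-associated protein, 0.550 ± 0.126 and 2.33 ± 1.46 FPKM. When 10 mg/kg replicate 3, the animal with the highest ring mean, was left out, the log2 fold changes were -1.86 for Rrm2, -1.11 for Kif11 and -1.64 for Nusap1 and none of the 3 passed. All 3 calls were also lost on leaving out 10 mg/kg replicate 2 or 4, saline replicate 1 or 3, 20 mg/kg replicate 1 or 2, or any animal at 40 mg/kg, and that of Rrm2 on leaving out 20 mg/kg replicate 3 or 4. Mki67 had log2 fold changes of -0.60 at 40 mg/kg and 0.91 at 10 mg/kg against saline, Top2a, a topoisomerase of dividing cells, -1.33 and 1.02, and Cdk1, the mitotic kinase, -1.21 and 1.06 (adjusted p of 0.222 to 0.999 by edgeR). The 3 dose comparisons share the saline animals.

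**Figure D5:**
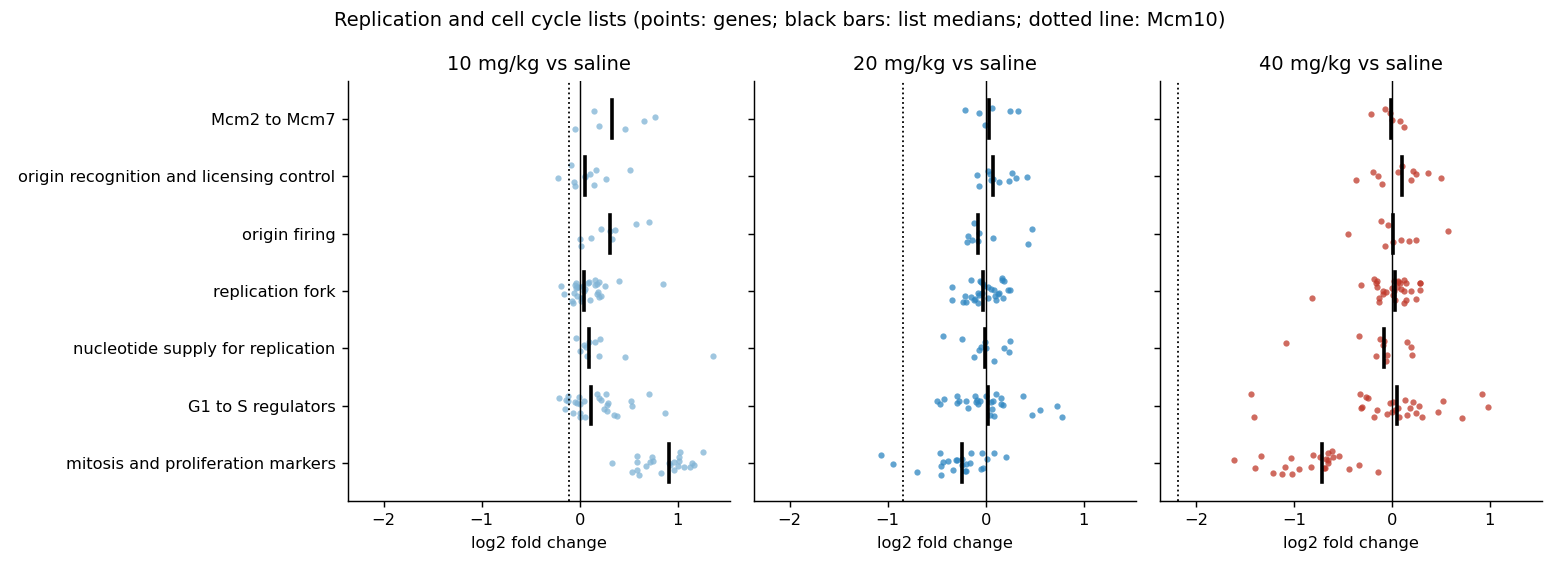
Log2 fold changes of Mcm2 to Mcm7 and of 6 lists of other replication and cell cycle genes at 10, 20 and 40 mg/kg xylazine against saline; points are tested genes, black bars list medians, and the dotted line is Mcm10. At 40 mg/kg the list medians lie between -0.71 and 0.10 and Mcm10 at -2.18.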

How the data were processed

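Liver RNA of 16 rats was sequenced, 4 animals per group. The authors deposited expected counts (estimated reads per gene, not normalized), FPKM and TPM. Bowtie2, RSEM, DESeq2 and the build mRatBN7.2 are named in the submitters' processing notes; roles, versions and strand are not given in the sources used here. The 16 columns of normalized counts and 16 of averages were not used.

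Expected counts were rounded and filtered with filterByExpr (minimum count 10, minimum total 15) in edgeR 4.0.16 under R 4.3.3, leaving 12732 genes. Robust quasi-likelihood models with TMM factors (0.924 to 1.10) were fitted over all 16 libraries, with groups as terms or with dose as a number (the trend, per full range). The p-values were two-sided and Benjamini-Hochberg adjusted over all genes, with 0.05 as the threshold. Intervals are 95%. Correlations were taken on log2 CPM (prior count 2) with 1e+05 permutations. The model was also run on counts simulated from the means and spreads of these libraries, with changes placed at 40 mg/kg. The outcome of that run is not used here. Other genes were named as the up to 2 of each list with the smallest p at 40 mg/kg, those passing, and a fixed set. Orc1 and Cdc7 stood in the fixed set.

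The genes and lists were chosen with earlier results of these data known. Alternatives were other scalings, filters, units and tests (DESeq2 1.42.0, limma 3.58.1), fewer groups, a replicate block, dose as its rank, and leaving out libraries. Removing 2 libraries together, the alternatives for Cps1, and the 40 against 10 mg/kg comparison of the lists, were chosen after seeing the data.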

Additional observations from a re-analysis of the deposited data

Results flagged for a closer look

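Among 36 sets of 4 animals (9 genes in 4 groups), 5 held an animal that stood far from the other 3 for the spread of its group, by a rule that chance meets in about 1 set in 20. Mcm10 had 14.4 CPM in 20 mg/kg replicate 4, and 4.47 to 6.04 CPM in the other animals of that dose. Mcm6 had 5.27 CPM in 10 mg/kg replicate 3, and 3.27 to 3.60 CPM in the others. Mcm6 also had 4.14 CPM in saline replicate 2, and 1.69 to 2.06 CPM in the other saline livers. Mcm5 had 2.80 CPM in 20 mg/kg replicate 3, and 0.924 to 1.17 CPM in the others. Cdt1 had 0.184 CPM, or 3 counts, in 10 mg/kg replicate 1, and 0.651 to 0.683 CPM in the others. The animals that stood high for Mcm5 or Mcm6 were also the 3 with the highest ring mean of all 16 (0.877 to 1.60 SD), a mean to which both genes contribute.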

How the results depend on the processing

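The fall of Mcm10 at 40 mg/kg and along the trend passed under all 11 other settings and all 16 removals of 1 library (log2 -2.35 to -1.90 at 40 mg/kg over the removals, adjusted p up to 0.0412). The smallest size at 40 mg/kg, -1.32, came on a log2(value + 1) scale, which understates low genes. The count of the 9 genes passing was 0 to 1 over the removals at 20 mg/kg, for any dose and at 40 against 10 mg/kg. Of all genes tested, 0 to 19, 6 to 89 and 2 to 120 passed over the same removals. Without saline replicate 4 and 20 mg/kg replicate 4 together the count was 1 at 20 mg/kg against saline and at 20 against 10 mg/kg. There 6 and 9 of all genes tested passed. Of the 114 other genes, DESeq2 called 2 at 40 mg/kg, 10 in the trend and 22 at 40 against 10 mg/kg, and of all genes 4.11%, 5.91% and 2.39%. The trend count was 0 with total count scaling, no filter, log2(FPKM + 1), the replicate block or dose as its rank, 2 with the stricter filter, 3 on either TPM scale, and 0 to 2 over the removals. In the same order, 280 to 414, 431, 473 to 484 and 127 to 405 of all genes tested passed. The 40 against 10 mg/kg count was 0 with total count scaling and limma-voom, 1 with the stricter filter, log2(TPM + 1), log2(FPKM + 1), the replicate block or only the groups compared, 8 without both replicates 4, and 0 to 11 over the removals. In the same order, 30 to 37, 34 to 73, 81 and 2 to 120 of all genes tested passed. The causes were not tested. With the replicate number as a block, Mcm10 at 40 mg/kg had -2.13 (adjusted p = 0.00746). Same-numbered animals of different groups correlated at -0.10 to 0.279 (median 0.000222), so the numbers were not taken to pair animals.

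Values near 0 turned in sign, and so did some larger ones when 1 library was left out. Among these were Mcm5 at 20 mg/kg (log2 fold change 0.24) and 40 mg/kg (-0.21) and Cdc45 at 10 mg/kg (0.34), all against saline. At 40 mg/kg Mcm2 was 0.013 and 0.026 on log2(TPM + 1) and log2(TPM + 0.1), Mcm3 0.039 with total count scaling and 0.038 with limma-voom, and Mcm6 -0.000138 with DESeq2 size factors, -0.000143 with DESeq2, -0.00585 without a filter, -0.00195 with the block, -0.00299 with only the groups compared and -0.078 without both replicates 4. Without those 2 libraries Mcm4 was -0.0011, Gins2 -0.24 and Tuba1b -0.031 at 40 mg/kg, Mcm2 -0.022 and Mcm6 0.011 at 20 mg/kg, and Mcm10 0.17 at 10 mg/kg. At 20 mg/kg Mcm6 was 0.035 with total count scaling, 0.052 with limma-voom, 0.047 on log2(TPM + 1), 0.095 on log2(TPM + 0.1) and 0.025 on log2(FPKM + 1). Over the removals at 40 mg/kg, Mcm2 ranged from -0.21 to 0.090, Mcm3 from -0.21 to 0.15, Mcm4 from -0.0013 to 0.22, Mcm5 from -0.40 to 0.19, Mcm6 from -0.15 to 0.38, Gins2 from -0.24 to 0.32, E2f1 from -0.59 to 0.10, Tuba1b from -0.032 to 0.11 and Smc4 from -0.21 to 0.031. At 20 mg/kg Mcm2 ranged from -0.056 to 0.23, Mcm4 from -0.27 to 0.065, Mcm5 from -0.25 to 0.64 and Mcm6 from -0.24 to 0.37. At 10 mg/kg Mcm2 ranged from -0.18 to 0.11, Mcm10 from -0.28 to 0.17 and Cdc45 from -0.29 to 0.66. Few reads limit Cdc6, Cdt1 and Cdc45.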
